A study of Mus musculus with 18 samples.

Results

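Hepatokines are proteins that the liver secretes into blood and that act as hormones on other organs, and 9 mouse genes that encode them were followed across 3 groups of livers. The genes were taken by symbol from the deposited count table: Fgf21, Gdf15, Angptl4, Angptl8, Igfbp1, Lect2, Fetub, Inhbe and Ahsg. Each symbol matched 1 row, so the set holds 9 of the 54752 genes in the table. All 9 passed the filter on low counts that left 21914 genes for testing.

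The livers came from male C57BL/6 mice bought at 6 weeks of age and treated for 12 weeks, with 6 sequenced mice per group out of 15 described. Control mice had corn oil injected into the abdomen, 10 µl per g and 2 times a week, and were given double distilled water by mouth daily. In the Cirrhosis group, the oil carried 10% carbon tetrachloride (CCl4), which hepatocytes convert into a toxic radical, with the same water. Cirrhosis-PTH mice had the same CCl4 and a daily oral dose of PTH, 0.25 mg per g, in place of the water. Here PTH abbreviates Pien Tze Huang, a preparation of traditional Chinese medicine, rather than parathyroid hormone. No group had PTH without CCl4, so the action of PTH on an uninjured liver was not measured. Feeding state at collection and the interval since the last injection are not given in the sources used here.

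The hepatokines differ in how they are known to be controlled. Fgf21, Gdf15, Igfbp1 and Inhbe are known targets of ATF4, the transcription factor of the integrated stress response, in which phosphorylation of eIF2-alpha slows translation while ATF4 is made. Fgf21 and Angptl4 are also targets of the fasting receptor PPAR-alpha, Angptl8 is induced by insulin and feeding, and insulin represses Igfbp1 through FOXO1. The fetuins Ahsg and Fetub and the chemotactic protein Lect2 are made by resting hepatocytes and enter plasma constitutively.

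Sequences before the RefSeq starts of 4 of the genes are printed first, because they hold letters that match 2 of the elements searched. They are from RefSeq (GRCm38.p6), which had a promoter for 8 of the 9 genes, and each is written 5′ to 3′ on the gene's own strand. Capitals mark the composite ATF4 and C/EBP element TGATGNAA, searched on both strands from 250 bases before to 50 after each start, in the first 3. In the last they mark CAAAACAA, a repeat of the insulin response element, which was searched only after this sequence had been read. The Fgf21 stretch lies at chr7:45615491-45615740 (minus strand), Angptl8 at chr9:21835260-21835509 (plus), Inhbe at chr10:127352012-127352039 (minus) and Igfbp1 at chr11:7197537-7197781 (plus). The RefSeq start of Inhbe lies inside the GENCODE gene, so its stretch is upstream in RefSeq and exonic in GENCODE, and only the match with its flanks is printed.
Fgf21: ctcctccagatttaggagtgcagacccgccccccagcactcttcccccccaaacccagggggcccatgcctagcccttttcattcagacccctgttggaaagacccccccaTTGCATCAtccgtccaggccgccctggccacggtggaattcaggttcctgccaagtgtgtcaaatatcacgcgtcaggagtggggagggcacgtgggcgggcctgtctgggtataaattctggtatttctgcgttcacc
Angptl8: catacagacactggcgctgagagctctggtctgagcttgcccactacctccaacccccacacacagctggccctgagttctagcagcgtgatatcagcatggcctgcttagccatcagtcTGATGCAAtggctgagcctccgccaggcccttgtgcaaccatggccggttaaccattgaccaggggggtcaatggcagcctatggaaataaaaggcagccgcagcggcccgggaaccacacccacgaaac
Inhbe: atcctctttcTTGCATCAtgcatgtcca
Igfbp1: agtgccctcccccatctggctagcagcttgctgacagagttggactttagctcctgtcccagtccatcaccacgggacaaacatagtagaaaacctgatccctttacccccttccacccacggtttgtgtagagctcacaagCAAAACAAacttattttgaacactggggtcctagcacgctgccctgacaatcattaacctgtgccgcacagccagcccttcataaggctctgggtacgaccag

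The composite element starts 139 bases before the RefSeq start of Fgf21, 130 before that of Angptl8 and 181 before that of Inhbe. Of 32851 RefSeq promoters of the same length, 3.97% hold it, against 3 of 8 for the hepatokine genes. Among the 20 genes of a list of ATF4 and integrated stress response genes, 7 hold it. The RefSeq shares, here and below, count promoters, while a gene counts once if any of its promoters matches, so the units differ. The insulin response repeat of Igfbp1 starts 108 bases before its start, and 2.51% of promoters hold that octamer. The E-box CACGTG lies in the windows of Fgf21 and Gdf15, against 7.15% of promoters. The hypoxia element core ACGTG, which is part of that E-box, lies in those of Fgf21, Gdf15 and Inhbe, against 19.6%. A forkhead element, GTAAACA, is in a window of Fetub alone among the 8, against 3.65% of promoters. The windows with these Gdf15 and Fetub matches lie inside the GENCODE genes, as that of Inhbe does. No window of the 8 genes held the unfolded protein response core TGACGTG, the STAT element TTCNNNGAA, the ER stress element or a direct repeat 1. These matches describe letters in a window and are not measured binding sites.

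The genes lie on GRCm38 as follows in GENCODE release M21, in which all 9 are protein-coding. Fgf21 (ENSMUSG00000030827) is at chr7:45613886-45615490, Gdf15 (ENSMUSG00000038508) at chr8:70629393-70632456 and Inhbe (ENSMUSG00000047492) at chr10:127348857-127354411, all on the minus strand. Angptl4 (ENSMUSG00000002289) at chr17:33773750-33781830 and Lect2 (ENSMUSG00000021539) at chr13:56542464-56548502 are also on the minus strand. On the plus strand are Igfbp1 (ENSMUSG00000020429) at chr11:7197782-7202546 and Angptl8 (ENSMUSG00000047822) at chr9:21835510-21837347. Ahsg (ENSMUSG00000022868, chr16:22891277-22899449) and Fetub (ENSMUSG00000022871, chr16:22918334-22939778) are neighbours on the plus strand. Angptl8 lies inside Dock6, a gene of the other strand with which it shares no exon bases. Antisense genes overlap Inhbe and Ahsg, sharing 0 exon bases with Inhbe and 62 of the 2197 exon bases of Ahsg. The strand setting of the counting is not given in the sources used here. Reads of both strands therefore cannot be told apart where exons overlap.

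Library totals ran from 62.5 to 112.3 M counts (M, mega), of which 31.4 to 60.8% fell on 6 loci that collect ribosomal RNA reads, and 24.5 to 67.5 M lay elsewhere. Control replicates 7 and 8 stood apart from the other Control libraries, with the highest shares of such reads. Some of the results that turn on them are given without them. Levels are given as CPM, each count scaled to its library's TMM-normalized total. Hepatocyte markers summed to 49113 to 65719 CPM in Control livers, 32301 to 53420 CPM with CCl4 and 48890 to 54480 CPM with CCl4 and PTH. The hepatocyte markers, which include Alb and Ttr, were thus abundant in every library, as the liver label says. Of these 8 genes, 7 were lower in Cirrhosis than in Control, with a median log2 fold change of −0.58. In Cirrhosis-PTH against Cirrhosis, 6 of the 8 were higher, with a median of 0.60. In bulk liver, fewer hepatocytes and less RNA per hepatocyte cannot be told apart. Of markers of other cells, 9 of 10 stellate cell genes and 7 of 10 macrophage genes were higher in Cirrhosis than in Control. In the macrophage list, 1 gene was lower in Cirrhosis. In Cirrhosis-PTH against Cirrhosis, 9 of those 10 stellate cell genes and 6 of those 10 macrophage genes were lower, not all of them the ones that had risen. Their sums were 259 to 404, 845 to 1121 and 367 to 790.0 CPM for stellate cells and 172 to 315, 427 to 786 and 236 to 302 CPM for macrophages, in the order Control, Cirrhosis and Cirrhosis-PTH. None of either list was at 0 in any group. Of 8 cholangiocyte genes, 6 were higher and 1 lower with CCl4, and 2 were lower with PTH, with sums of 27.7 to 54.9, 93.4 to 210.4 and 34.5 to 91.8 CPM in the same order. Of 8 T, B and NK cell genes, 5 were higher with CCl4 and 1 was lower with PTH, with sums of 18.9 to 26.7, 52.998 to 92.5 and 26.7 to 37.2 CPM. Of 8 endothelial genes, 2 were higher and 1 lower with CCl4, and 1 was higher and 3 were lower with PTH. Over all genes tested, 25.5% were higher and 25.0% lower with CCl4, and 20.1% higher and 18.6% lower with PTH. The part of these cells in the results below was not tested.

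CCl4 was followed by higher RNA of 4 hepatokine genes and lower RNA of 2. Igfbp1, Fgf21, Gdf15 and Angptl8 rose and Fetub and Angptl4 fell, while Ahsg, Inhbe and Lect2 did not pass the test (edgeR quasi-likelihood test, adjusted p under 0.05). Of all genes tested, 25.5% were higher and 25.0% lower, so the number of calls does not set the 9 genes apart. The sizes ranged from a log2 fold change of −0.72 for Fetub to 4.53 for Igfbp1, with a median of 0.04 over the 9 genes and 0.02 over all genes. For 3 genes, Igfbp1, Gdf15 and Fetub, no Cirrhosis liver overlapped with a Control liver, against 30.3% of all genes. Without Control replicates 7 and 8, 3 were higher and 2 lower, since Angptl8 no longer passed.

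With PTH beside CCl4, 6 hepatokine genes were lower than with CCl4 alone and 1 was higher. The 4 genes that had risen fell, as did Inhbe and Ahsg, and Fetub rose. Only Angptl4 and Lect2 were not called. The shares over all genes were 18.6% lower and 20.1% higher. Libraries did not overlap for Igfbp1, Fgf21, Gdf15, Angptl8 and Fetub, against 22.8% of all genes. The median log2 fold change was −0.52 over the 9 genes and −0.0032 over all genes. Both comparisons share the Cirrhosis libraries, so they are not independent of each other, and each gene's values are given for both.

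**Figure D1:**
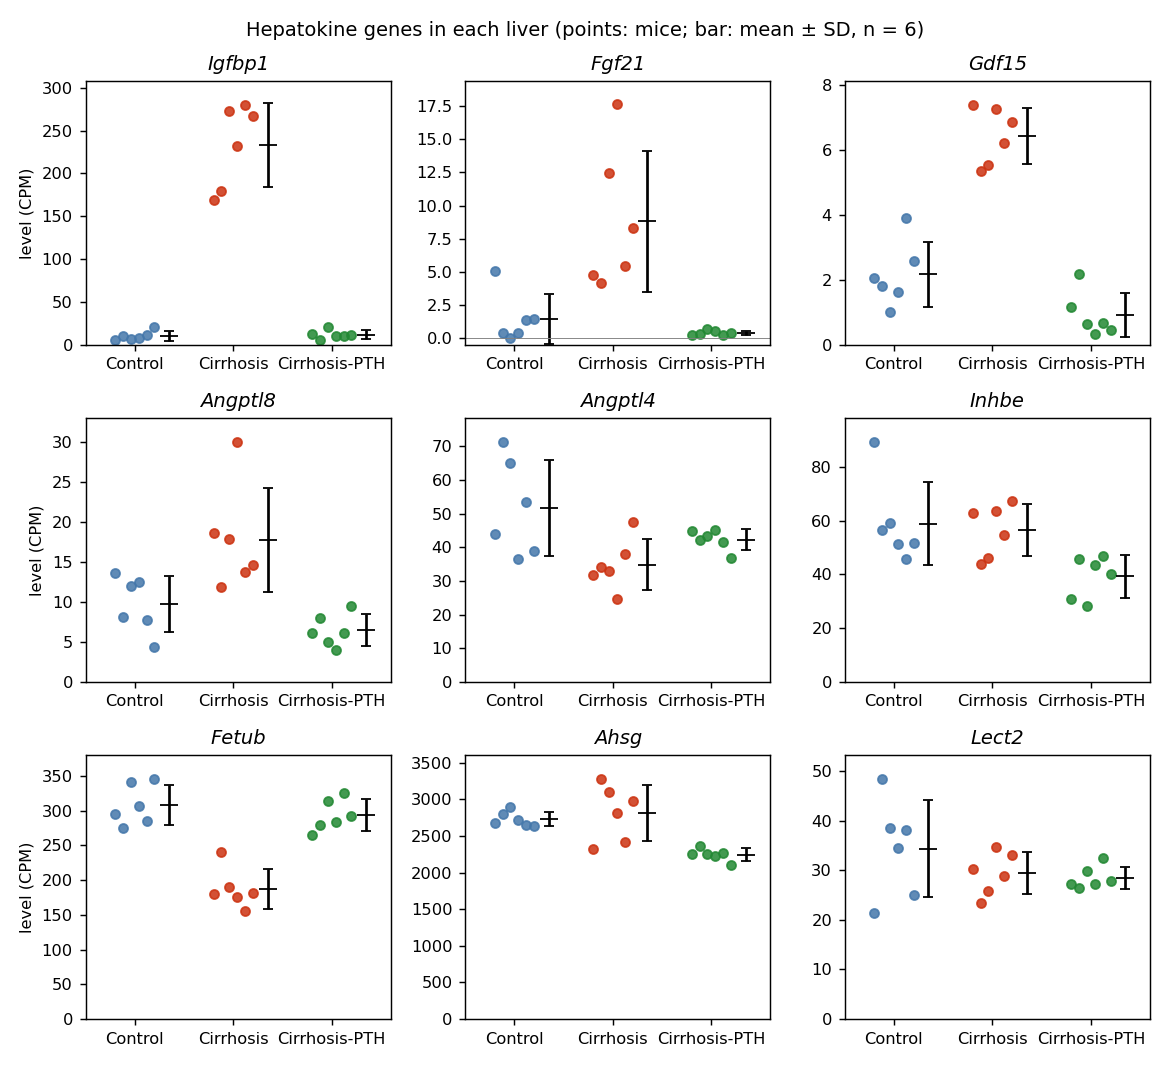
Level of each hepatokine gene in CPM (vertical axis, from 0) in each mouse of the 3 groups (points), with mean ± SD (bars, n = 6). The 6 Cirrhosis livers stand above all others for Igfbp1 and Gdf15 and below all others for Fetub.

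Igfbp1 encodes a hepatic protein that binds insulin-like growth factors in plasma and keeps them from their receptor. It had the largest change of the 9 genes in Cirrhosis against Control. Control livers held 5.88 to 20.4 CPM (median 8.44), Cirrhosis livers 169 to 279.9 CPM (median 249.9) and Cirrhosis-PTH livers 5.58 to 20.4 CPM (median 11.0). Every Cirrhosis liver was above every other liver, and the other groups covered nearly the same range. The means were 10.2 ± 5.44, 234 ± 49.0 and 11.7 ± 4.88 CPM (SD, n = 6 each). Igfbp1 was 23.1-fold higher in Cirrhosis than in Control (log2 fold change 4.53 ± 0.36 SE, adjusted p = 2.5e-08) and 19.9-fold lower in Cirrhosis-PTH than in Cirrhosis (−4.31 ± 0.35, adjusted p = 9.2e-08). Between Cirrhosis-PTH and Control the log2 difference was 0.21 ± 0.31 (adjusted p = 0.75).

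Fgf21 encodes an endocrine growth factor that acts on fat and brain through the co-receptor beta-Klotho. Control livers held 0 to 5.05 CPM (median 0.859), with no count in replicate 3, where a floor of 3 counts equals 0.0507 CPM. Cirrhosis livers held 4.16 to 17.6 CPM (median 6.86) and Cirrhosis-PTH livers 0.198 to 0.645 CPM (median 0.329). Control replicate 1 was above the lowest Cirrhosis livers, and no Cirrhosis-PTH liver reached a Cirrhosis liver. Mean levels were 1.42 ± 1.87, 8.80 ± 5.31 and 0.368 ± 0.172 CPM (SD, n = 6 each). Fgf21 rose by 2.63 ± 0.75 on the log2 scale with CCl4 (adjusted p = 0.0078), and by 3.76 without Control replicate 1. With PTH it was lower than in Cirrhosis by a log2 fold change of −4.57 ± 0.83 (adjusted p = 0.00032), the largest fall of the 9 genes in that comparison. Against Control it stood at −1.94 ± 0.79, which did not pass the test (adjusted p = 0.15), and at −0.81 without Control replicate 1. Exocrine pancreas also makes Fgf21, and Cirrhosis replicate 2 held 1068 counts of 5 acinar enzyme genes (Prss2, Cpa1, Cel, Ctrb1 and Pnlip), against at most 14 in any other library. Fgf21 in that library was 4.16 CPM, the lowest of its group, and the change with CCl4 was 2.78 without it. Cela1, the other gene of that list of 6 and the only 1 tested, went the other way. It ran from 3.39 to 9.09 CPM in Control livers and from 1.03 to 2.17 CPM in Cirrhosis livers (log2 fold change −1.61, called lower).

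Gdf15 encodes a stress cytokine that reduces appetite through the brainstem receptor GFRAL. Its level was 1.01 to 3.89 CPM in Control (median 1.93), 5.36 to 7.38 CPM in Cirrhosis (median 6.52) and 0.343 to 2.17 CPM in Cirrhosis-PTH (median 0.655). The Cirrhosis livers were again clear of both other groups, which overlapped with each other. Means were 2.16 ± 0.991, 6.43 ± 0.867 and 0.904 ± 0.681 CPM (SD, n = 6 each). The log2 fold change was 1.58 ± 0.36 in Cirrhosis against Control (adjusted p = 0.0011) and −2.85 ± 0.38 in Cirrhosis-PTH against Cirrhosis (adjusted p = 6.7e-06). Gdf15 was lower in Cirrhosis-PTH than in Control by a log2 fold change of −1.26 ± 0.37 (adjusted p = 0.040). That last call was lost in 10 of 18 fits that each left out 1 library, and without Control replicates 7 and 8 the value was −0.84 (adjusted p = 0.21).

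Angptl8 encodes a feeding-induced protein that restrains lipoprotein lipase, the enzyme that releases fatty acids from plasma triglyceride. Control livers held 4.40 to 13.6 CPM (median 10.0), Cirrhosis livers 11.9 to 30.0 CPM (median 16.2) and Cirrhosis-PTH livers 3.99 to 9.50 CPM (median 6.09). Control overlapped with both other groups, but each Cirrhosis liver was above each Cirrhosis-PTH liver. The means were 9.71 ± 3.54, 17.7 ± 6.49 and 6.43 ± 2.01 CPM (SD, n = 6 each). Angptl8 rose by 0.86 ± 0.28 on the log2 scale with CCl4 (adjusted p = 0.014), but by 0.67 without Control replicates 7 and 8, which did not pass (adjusted p = 0.051). It was lower with PTH than with CCl4 alone by −1.46 ± 0.28 (adjusted p = 0.00039). Against Control it stood at −0.60 ± 0.28 (adjusted p = 0.20).

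Angptl4, a relative that inhibits lipoprotein lipase in fasting, took the other direction. Its levels were 36.5 to 71.3 CPM in Control (median 48.7), 24.6 to 47.4 CPM in Cirrhosis (median 33.6) and 36.9 to 45.2 CPM in Cirrhosis-PTH (median 42.7). All 3 groups overlapped, and the Cirrhosis-PTH livers lay closest together. Angptl4 fell by 0.57 on the log2 scale with CCl4 (SE 0.16, adjusted p = 0.0056), from 51.6 ± 14.3 to 34.8 ± 7.56 CPM (SD, n = 6 each). The Cirrhosis-PTH mean of 42.3 ± 3.02 CPM lay between, and neither its difference from Cirrhosis (0.28 ± 0.16, adjusted p = 0.18) nor from Control (−0.29 ± 0.16, adjusted p = 0.30) passed the test.

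Adipose tissue makes Angptl4 and Angptl8 too. Of 6 adipocyte markers, Lep had no count in any library and Adipoq had 4 counts in all, all in Cirrhosis-PTH livers. Cidec and Fabp4, the 2 that could be tested, were higher in Cirrhosis than in Control (log2 fold changes 1.84 and 1.31) and lower in Cirrhosis-PTH than in Cirrhosis (−2.002 and −0.86). Both are also made outside fat, Cidec in steatotic hepatocytes and Fabp4 in macrophages and endothelium. The sum of the 6 ran from 4.78 to 7.27 CPM in Control livers, from 10.7 to 22.0 CPM with CCl4 and from 5.12 to 9.95 CPM with CCl4 and PTH.

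Fetub encodes fetuin B, a plasma protease inhibitor of the cystatin superfamily. Control livers held 275 to 345 CPM (median 301), Cirrhosis livers 155 to 240.5 CPM (median 180.4) and Cirrhosis-PTH livers 265 to 326 CPM (median 288). Each Cirrhosis liver was below each liver of the other groups, and those overlapped. The means were 308 ± 29.2, 187 ± 28.6 and 293 ± 22.9 CPM (SD, n = 6 each). Fetub fell by 0.72 with CCl4 (log2, SE 0.09, adjusted p = 1.3e-06) and was higher with PTH than without by 0.65 ± 0.09 (adjusted p = 8.4e-06). Cirrhosis-PTH and Control differed by −0.07 ± 0.09 (adjusted p = 0.71).

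Ahsg encodes fetuin A, an abundant plasma glycoprotein that binds calcium phosphate and inhibits the insulin receptor. Its neighbour on chromosome 16 fell with CCl4, but Ahsg did not pass the test (log2 fold change 0.04 ± 0.09, adjusted p = 0.70). The levels were 2636 to 2893 CPM in Control (median 2701), 2317 to 3276 CPM in Cirrhosis (median 2895) and 2109 to 2370.2 CPM in Cirrhosis-PTH (median 2255). The Cirrhosis livers spread on both sides of the Control range, and all Cirrhosis-PTH livers lay below all Control livers. Means were 2731 ± 98.8, 2817 ± 380.2 and 2247 ± 83.7 CPM (SD, n = 6 each). Ahsg was lower in Cirrhosis-PTH than in Cirrhosis by −0.33 ± 0.09 on the log2 scale (adjusted p = 0.0052) and lower than in Control by −0.28 ± 0.09 (adjusted p = 0.049). The second of these was lost in 14 of 18 fits that each left out 1 library.

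Inhbe encodes the hepatocyte-specific beta E subunit of activin, which circulates and restrains fat breakdown in adipose tissue. Control livers held 45.5 to 89.2 CPM (median 54.1), Cirrhosis livers 43.9 to 67.3 CPM (median 58.7) and Cirrhosis-PTH livers 28.2 to 46.8 CPM (median 41.9). The Cirrhosis range lay mostly within the Control range, and the Cirrhosis-PTH range reached only their lower ends. Means were 58.9 ± 15.6, 56.4 ± 9.75 and 39.2 ± 7.90 CPM (SD, n = 6 each). Inhbe differed by −0.06 ± 0.16 between Cirrhosis and Control (log2, adjusted p = 0.77). It was lower in Cirrhosis-PTH than in Cirrhosis by −0.52 ± 0.16 (adjusted p = 0.015) and than in Control by −0.59 ± 0.16 (adjusted p = 0.029), the second lost in 6 of 18 fits without 1 library.

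Lect2 encodes a chemotactic factor made by hepatocytes. Its levels were 21.5 to 48.3 CPM in Control (median 36.3), 23.4 to 34.7 CPM in Cirrhosis (median 29.6) and 26.4 to 32.4 CPM in Cirrhosis-PTH (median 27.5). The Control livers spread beyond both other groups at either end. No comparison of Lect2 passed the test: the log2 differences were −0.23 ± 0.15 for Cirrhosis against Control (adjusted p = 0.22), −0.04 ± 0.15 for Cirrhosis-PTH against Cirrhosis (adjusted p = 0.86) and −0.27 ± 0.15 for Cirrhosis-PTH against Control (adjusted p = 0.29). Without Control replicate 1, the lowest Control liver, the first was −0.33 and passed (adjusted p = 0.035).

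**Figure D2:**
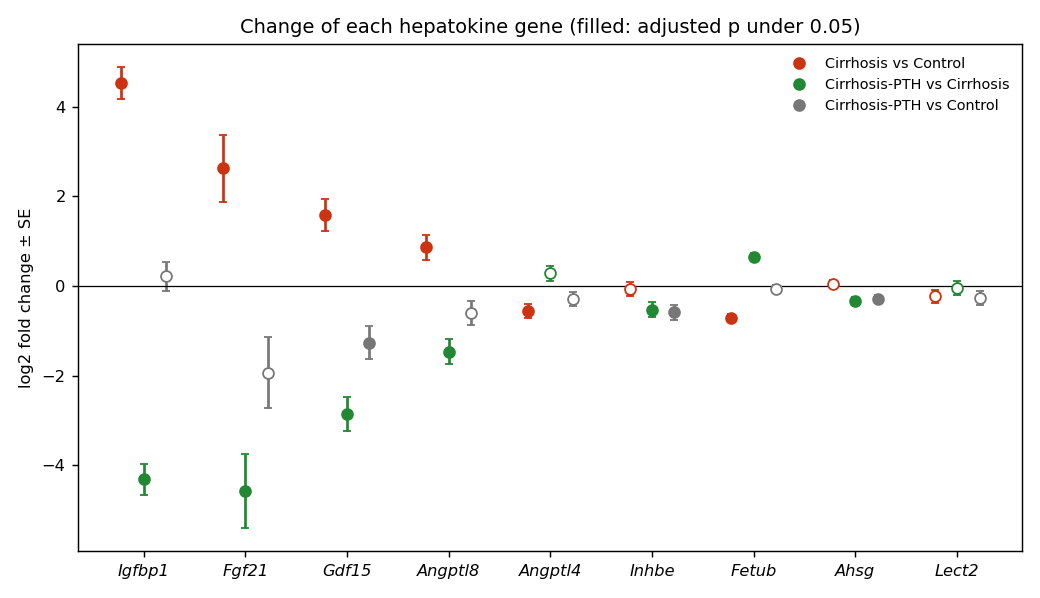
Log2 fold change ± SE (vertical axis) of each hepatokine gene in the 3 comparisons, with filled marks for adjusted p under 0.05. Igfbp1, Fgf21, Gdf15 and Angptl8 lie above 0 in Cirrhosis against Control and below 0 in Cirrhosis-PTH against Cirrhosis, and Fetub lies on the opposite side in both.

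Cirrhosis-PTH and Control livers, which differ by both CCl4 and PTH, were compared last. Of the 9 genes, 3 were lower in Cirrhosis-PTH (Gdf15, Inhbe and Ahsg), against 2.48% of all genes. None was higher by edgeR, none had an unadjusted p under 0.05 in that direction and DESeq2 called 0 higher, against 6.34% of all genes by edgeR. Libraries did not overlap for Ahsg alone, against 4.47% of all genes. The median log2 fold change was −0.29 over the 9 genes and 0.0055 over all genes. The 3 calls were close to the threshold: 0 to 3 genes passed when 1 library was left out, and 1 passed without Control replicates 7 and 8. Gdf15 did not pass without those 2 libraries, and the values of Inhbe and Ahsg without them are not reported here.

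Levels were then set side by side between genes per kb of exon, with lengths from GENCODE. For Inhbe that length is 5319 bases, and the GENCODE gene extends beyond the RefSeq start. A shorter length would raise its level per kb, so the place of Inhbe depends on the annotation. In Control livers Ahsg led with a mean of 1243 CPM per kb, followed by Fetub at 157, Lect2 at 37.4 and Angptl4 at 14.6, with no overlap between the first 3 neighbouring pairs. Angptl8 at 11.2, Inhbe at 11.1, Igfbp1 at 6.70, Fgf21 at 1.49 and Gdf15 at 1.17 CPM per kb followed, each overlapping with its neighbour. In Cirrhosis livers Igfbp1 moved from the seventh to the second place, at 153 CPM per kb. Its range overlapped with that of Fetub at 95.4 and not with that of Ahsg at 1282. Then came Lect2 at 32.0, Angptl8 at 20.5, Inhbe at 10.6, Angptl4 at 9.84, Fgf21 at 9.25 and Gdf15 at 3.47 CPM per kb. Of these, Fetub and Lect2, Angptl8 and Inhbe, and Fgf21 and Gdf15 did not overlap. In Cirrhosis-PTH livers the order was Ahsg at 1023, Fetub at 149.6, Lect2 at 31.0, Angptl4 at 11.9, Igfbp1 at 7.69, Angptl8 at 7.43, Inhbe at 7.37, Gdf15 at 0.488 and Fgf21 at 0.387 CPM per kb. Igfbp1, Angptl8 and Inhbe could not be ordered there, nor could Gdf15 and Fgf21. The ranges of Angptl4 and Igfbp1 overlapped too, with Angptl4 above Igfbp1 in 5 of 6 mice.

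The 9 genes together made 3207 ± 118 CPM in Control livers, 3391 ± 400.3 CPM in Cirrhosis livers and 2669.9 ± 87.6 CPM in Cirrhosis-PTH livers (SD, n = 6 each). Ahsg and Fetub held 94.8 ± 0.580% of that sum in the first group, 88.5 ± 2.07% in the second and 95.1 ± 0.176% in the third. These are shares of reads, which grow with gene length.

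**Figure D3:**
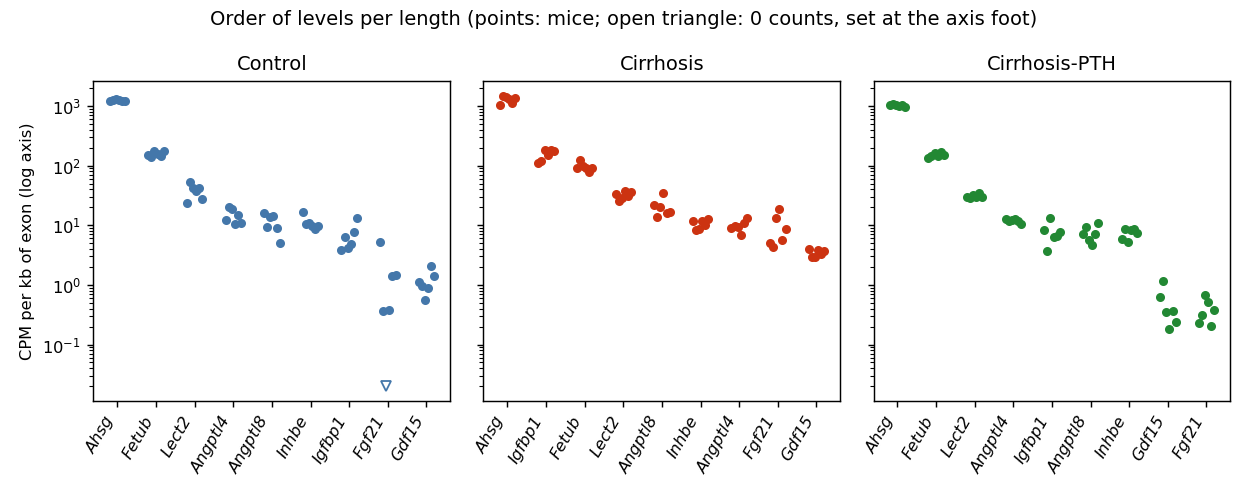
Level per kb of exon (log axis, CPM per kb) of each hepatokine gene in each mouse (points), in the order of the group means; the open triangle is a library with 0 counts. Ahsg is highest in all 3 groups, and Igfbp1 lies beside Fetub in Cirrhosis only.

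Relatives of the hepatokine genes were measured in the same fit. Igfbp1 has 6 tested relatives, of which Igfbp2 (log2 fold change −1.04) and Igfbp4 (−0.88) fell and Igfbp7 (1.28) rose in Cirrhosis against Control. Igfbp3 stood at −0.30, Igfbp5 at −0.41 and Igfbp6 at −0.62, and these did not pass. With PTH, Igfbp2, Igfbp3, Igfbp4 and Igfbp5 were higher than in Cirrhosis, by 0.87, 0.81, 0.88 and 1.50, and Igfbp7 was lower by −0.48. Igfbp6 stood at 1.50 and did not pass. Igfbp4, which is also made by hepatocytes, went from 894 ± 47.7 CPM in Control livers to 487 ± 65.1 CPM with CCl4 and 895 ± 69.8 CPM with PTH beside it (SD, n = 6 each).

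Among angiopoietin-like genes, Angptl6 fell by 1.22 on the log2 scale with CCl4, and Angptl1, at under 1 CPM in every group mean, rose by 0.79. With PTH, Angptl1 was lower than in Cirrhosis by −1.10, and Angptl6 stood at 0.28 and did not pass. Angptl2 at 0.18 and Angptl7 at 0.40 did not pass.

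For activin, Inhba and Inhbb, the beta A and beta B subunits, rose by 0.99 and 0.94 with CCl4 and were lower with PTH by −1.36 and −1.27. Inhbc, the hepatocyte gene that adjoins Inhbe, stood at 0.05 and −0.38 in these comparisons and Inha at 1.27 and −0.30, none of which passed. Among type 3 cystatins and fetuin targets, 4 of 6 tested genes fell with CCl4: Fetub, the kininogens Kng1 (−0.60) and Kng2 (−0.29), and Hrg (−0.91). Hrg, a histidine-rich plasma glycoprotein related to the fetuins, went from 498 ± 40.3 to 266 ± 49.4 CPM and was 449.8 ± 32.8 CPM with PTH (SD, n = 6 each).

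**Figure D4:**
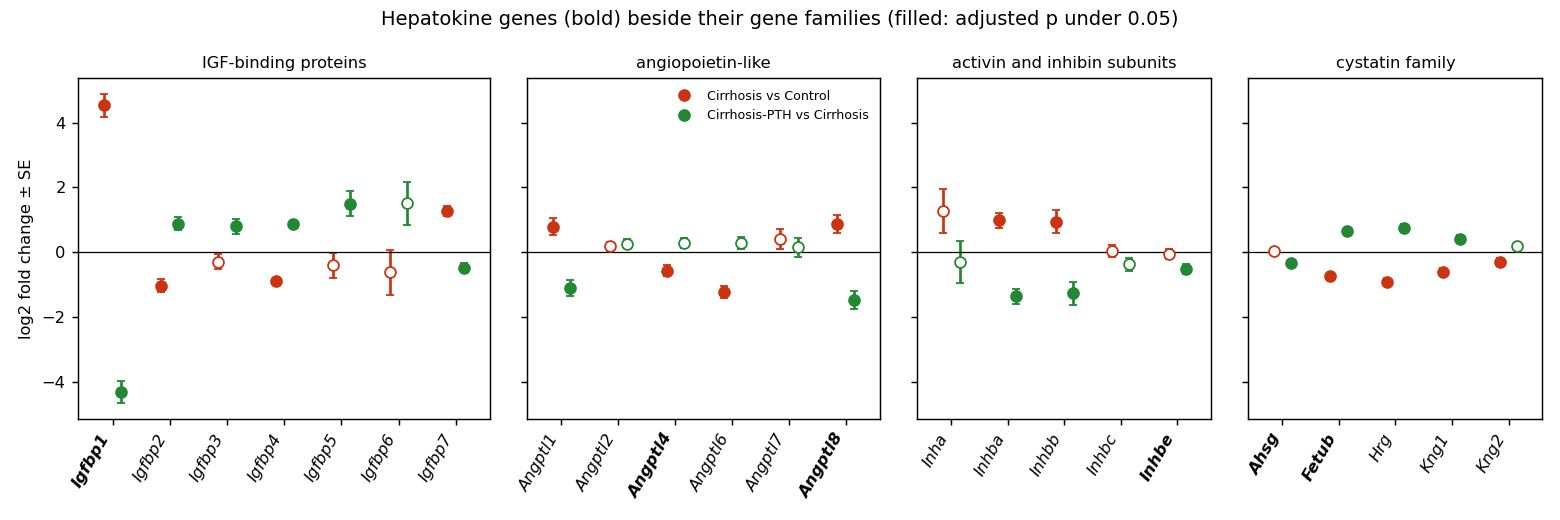
Log2 fold change ± SE (vertical axis) of tested genes of the IGF-binding protein, angiopoietin-like, activin and cystatin families, hepatokines in bold, in Cirrhosis against Control and Cirrhosis-PTH against Cirrhosis, with filled marks for adjusted p under 0.05. Igfbp1 lies at 4.53 in the first comparison, while Igfbp2 and Igfbp4 lie below 0.

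Receptors and partners through which the hormones act were measured in the same livers, although most targets lie in other organs. Klb, the beta-Klotho co-receptor of FGF21, fell from 33.9 ± 4.16 to 18.0 ± 5.40 CPM with CCl4 and was 33.1 ± 2.59 CPM with PTH (log2 fold changes −0.91 ± 0.16 and 0.88 ± 0.16). Fgfr1, the receptor that pairs with Klb in fat, rose by 0.62, and Fgfr4, the main hepatocyte FGF receptor, stood at 0.11 and was not called. In the list of the FGF21 receptor complex and endocrine FGF signalling, 4 of 10 tested genes rose and 3 fell with CCl4, and Fgf1 had the smallest p, at −1.46. Gfral had no count in any of the 18 libraries, and of the 3 tested genes of the GDF15 list, Mmp14, a membrane protease that cleaves GFRAL, rose by 1.59 and the other 2 fell.

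The IGF system list was split, with 4 of 8 tested genes outside the binding proteins higher and 4 lower with CCl4. Igf1 went from 478 ± 85.1 to 255 ± 57.8 CPM with CCl4 and to 501 ± 76.6 CPM with PTH (SD, n = 6 each), with log2 fold changes of −0.90 ± 0.14 and 0.97 ± 0.14. Igfals, which holds IGF1 in its long-lived plasma complex, fell by 1.60, and Ghr, the growth hormone receptor, fell by 1.69. With PTH, 4 of the 8 were higher and 1 was lower than in Cirrhosis.

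Among lipoprotein lipase and its partners, 6 of 9 genes fell with CCl4 and Lpl itself rose. Lpl went from 18.2 ± 4.11 CPM in Control livers to 127 ± 13.4 CPM with CCl4 and 52.5 ± 12.3 CPM with PTH beside it (SD, n = 6 each), with log2 fold changes of 2.81 ± 0.17 and −1.28 ± 0.16. Lipg, endothelial lipase, fell by 1.93 with CCl4 and was 2.45 higher on the log2 scale with PTH. Follistatin (Fst), a secreted trap for activins, rose from 1.32 ± 0.989 to 7.39 ± 2.31 CPM with CCl4 and was 1.29 ± 0.510 CPM with PTH (SD, n = 6 each). Of 11 activin receptors and binding proteins, 6 rose and 3 fell with CCl4, and the activin receptor Acvr2a was among the latter (−0.48). Met, 1 of 4 LECT2 receptors in the list, fell by 0.73 with CCl4 and was 0.49 higher with PTH, and the other 3 were not called in either comparison. Of 19 other secreted hepatocyte regulators, 11 fell and 3 rose with CCl4, led by Dpp4, a secreted and membrane peptidase, at −1.06. With PTH, 7 were higher and 2 lower than in Cirrhosis, and Manf, a protein released under endoplasmic reticulum stress, had the smallest p, at −1.83.

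Genes of the pathways known to act on hepatokines were counted next. In the ATF4 and integrated stress response list, 16 of 20 genes rose and 1 fell with CCl4, and 17 were lower and 1 higher with PTH than without. The medians were 1.62 and −1.71, against 0.02 and −0.0032 over all genes. Atf4 RNA itself, which is controlled mostly in translation, rose by 0.45 ± 0.09 and was lower by −0.71 ± 0.09 with PTH. Atf3, a transcription factor induced by ATF4, went from 0.450 ± 0.169 to 32.6 ± 13.4 CPM and to 1.54 ± 0.403 CPM (SD, n = 6 each). Ddit3, which encodes the stress factor CHOP, went from 3.52 ± 0.610 to 14.9 ± 4.22 CPM and to 2.77 ± 0.524 CPM. In the unfolded protein response list, 9 of 13 rose and 1 fell with CCl4, and 11 were lower with PTH, with the chaperone Hspa5 at 1.58 and −1.85. The p53 list, of which Gdf15 is a known target, had 12 of 15 higher with CCl4 and 12 lower and 1 higher with PTH. Its cell-cycle inhibitor Cdkn1a went from 0.689 ± 0.193 to 21.8 ± 4.13 CPM and to 1.33 ± 0.545 CPM (SD, n = 6 each).

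In the lists of fasting and feeding pathways, more genes fell than rose with CCl4. In the list of PPAR-alpha and its fasting targets, 10 of 17 genes fell and 3 rose with CCl4, and 8 were higher and 3 lower with PTH. Ppara itself went from 189.6 ± 6.70 to 81.3 ± 10.3 CPM and to 160.3 ± 10.8 CPM (SD, n = 6 each). Of its 2 targets among the hepatokines, Angptl4 fell and Fgf21 rose with CCl4. Among insulin and lipogenic targets, 8 of 15 fell with CCl4 and 7 were higher with PTH. Mlxipl, which encodes the glucose sensor ChREBP, stood at −1.85 and 1.27, against 0.86 and −1.46 for the feeding hormone Angptl8. Of FOXO targets and gluconeogenic genes, 6 of 9 fell with CCl4 and 5 were higher with PTH. Foxo1 itself stood at −0.88 and 0.77, and Igfbp1 at 4.53 and −4.31. The values of Ppara, Mlxipl and Foxo1 are of RNA only. The activity of these regulators was not measured, and their part in the hepatokine changes was not tested.

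Of hypoxia-inducible genes, 6 of 12 rose and 2 fell with CCl4, with hexokinase Hk2 at 2.36 and the mitophagy receptor Bnip3 at −1.08. With PTH 5 were lower and 2 higher, Bnip3 being higher by 1.21. Glucocorticoid targets were split, with 3 of 8 higher and 2 lower with CCl4, among them the kinase Sgk1 at 1.27 and the receptor Nr3c1 at −0.40. Targets of beta-catenin in hepatocytes around the central vein, the zone that CCl4 injures, fell in 11 of 14 genes with CCl4 and were higher in 13 of 14 with PTH. Glul, the glutamine synthetase of that zone, stood at −3.51 with CCl4 and the glutamate transporter Slc1a2 at 8.47 with PTH against Cirrhosis.

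**Figure D5:**
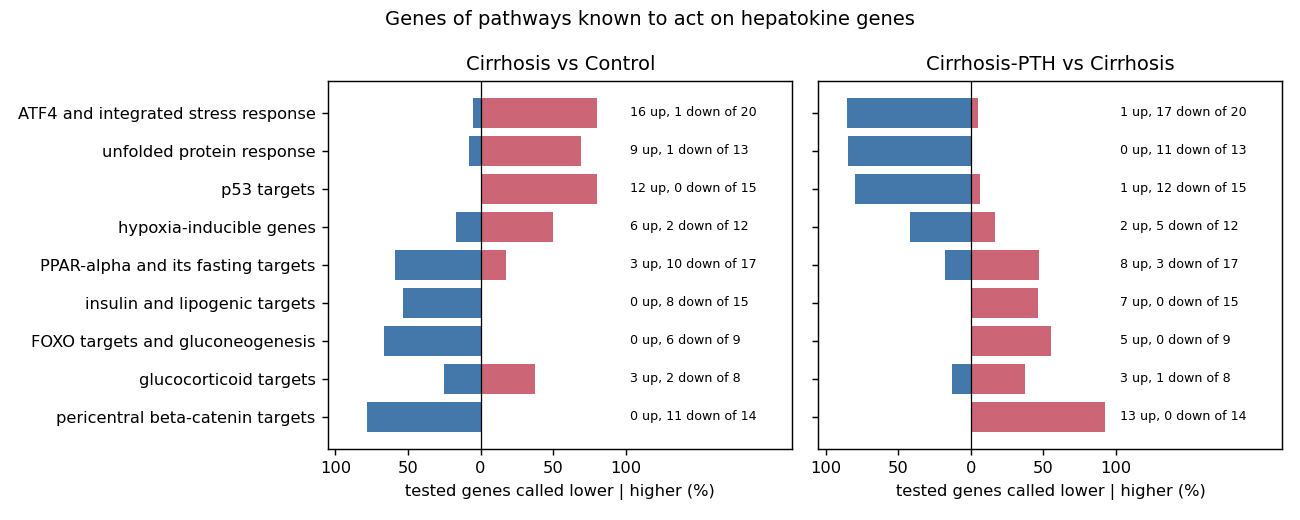
Share of the tested genes of 9 pathway lists that were called higher (right of 0) or lower (left of 0), in percent, in Cirrhosis against Control and Cirrhosis-PTH against Cirrhosis. The ATF4 list has 16 of 20 genes higher in the first comparison and 17 lower in the second, while the PPAR-alpha list has 10 of 17 lower and 8 higher.

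In Cirrhosis-PTH against Control, where 6.34% of all genes were higher and 2.48% lower, list genes called were 1 higher and 2 lower of 20 for the ATF4 list, 4 lower of 13 for the unfolded protein response, 4 higher of 15 for p53 targets and 1 lower of 17 for PPAR-alpha. Of pericentral beta-catenin targets, 4 of 14 were lower and 1 was higher, and 3 of 8 glucocorticoid targets were higher. The other lists had 1 higher of 12 for hypoxia, 1 lower of 15 for insulin and lipogenic targets and 1 lower of 9 for FOXO. Of the marker lists, 5 of 10 stellate cell genes and 4 of 10 macrophage genes were higher. None of 8 hepatocyte genes was called, and 2 of 8 cholangiocyte, 2 of 8 T, B and NK cell and 1 of 8 endothelial genes were higher. Atf3 was the higher gene of the ATF4 list, at 1.73 on the log2 scale.

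The genes whose pattern was most like that of each hepatokine were found by Pearson correlation of log2 CPM over the 18 libraries, among 10619 genes. The libraries share their groups, so r was also computed with group means removed, and both describe these libraries only. For Fgf21 the 3 closest were Rassf1 (r = 0.90, 0.75 with group means removed), Gadd45a (0.88, 0.66) and Atf5 (0.87, 0.74). For Igfbp1 they were P3h1, Cd14 and Nans, at 0.96 to 0.97 but only 0.42 to 0.64 with group means removed. Gdf15 was closest to Arl8a, Sdf2l1 and Plk2 (all 0.91, and 0.60 to 0.78 with group means removed), Angptl8 to Slc30a5, Slc10a3 and Rint1 (0.85 to 0.86, and 0.67 to 0.72) and Fetub to C2, Atrnl1 and Gpcpd1 (0.95 to 0.97, and 0.69 to 0.76). The other 4 had lower r, though not all of them were lower with group means removed. Angptl4 had Anxa11 and Pfdn1 among its closest (both 0.83, and 0.71 and 0.77 with group means removed). Inhbe was closest to Erlin1, Rpl7l1 and Ppid (0.77 to 0.80, and 0.63 to 0.78). Ahsg was closest to Ick, Arcn1 and Tram1 (0.80 to 0.82, and 0.42 to 0.57). Lect2 was closest to Cs, Cers2 and Gpd2 (0.75 to 0.80, and 0.74 to 0.77). By Spearman correlation, 6 of the 9 hepatokines shared none of their 3 closest genes with this ranking, so the names depend on the measure.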

How the data were processed

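Liver RNA depleted of ribosomal RNA was sequenced from 18 mice, 1 library each. The authors deposited whole-number counts per gene. The submitters' processing notes name GRCm38, Trim Galore, cutadapt 4.2, Bowtie2, Bowtie 1.3.1, StringTie 2.1.5 and HISAT2 2.2.1, with no role. Strandedness, annotation release and filters are not given in the sources used here. No row lacked a gene.

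The 3 groups were fitted together in edgeR 4.0.16 (R 4.3.3), with TMM scaling and filterByExpr defaults, and tested two-sided by robust quasi-likelihood F-tests. Benjamini-Hochberg adjustment ran over 21914 genes with a threshold of 0.05. SE was derived from the F statistic. CPM used TMM-scaled library sizes, and the log2 prior count was 2. Exon lengths came from GENCODE M21, matched for 54723 genes. DESeq2 1.42.0, RLE scaling, no filter, totals without ribosomal loci, a replicate block, fits of 12 libraries and fits without libraries were alternatives. The fit was tested on simulated data.

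The genes, lists and tests were chosen with earlier results of these data known. Named are the 9 genes, 15 fixed partners, the other tested genes of their families, the gene of each list with the smallest p in the first 2 comparisons and the 3 genes most like each hepatokine. Cidec, Fabp4, the acinar genes and Atf3 against Control were named after their values were seen. Some genes of this rule are not reported here. Precision is limited by the 6 mice per group. Floors cover counting error only.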

Additional observations from a re-analysis of the deposited data

Results flagged for a closer look

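In 27 sets of 6 mice (9 genes in 3 groups), 3 had 1 liver whose gap to its nearest neighbour, divided by the range of the set, passed Dixon's 95% value of 0.625. Chance gives about 1 in 20 such sets. Fgf21 in Control replicate 1 was 5.05 CPM, and the next liver was 1.41 CPM (0.721 of the range). Inhbe in the same liver was 89.2 CPM, next to 59.0 CPM (0.690 of the range). Angptl8 in Cirrhosis replicate 4 was 30.0 CPM, next to 18.5 CPM (0.631 of the range). Fgf21 was also highest of its group in that Cirrhosis liver, at 17.6 CPM.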

How the results depend on the processing

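Over 675 pairs of a gene's comparison and an alternative, 628 kept direction and side of the threshold, 41 lost the call, 1 gained it and 5 reversed. The reversed values, none of which passed the test, were Inhbe in Cirrhosis against Control at 0.094 without Control replicate 1 and 0.00064 without Cirrhosis replicate 2 (−0.13 to 0.094 over fits without 1 library), Ahsg there at −0.0023 without Cirrhosis replicate 2 (to 0.096), Lect2 in Cirrhosis-PTH against Cirrhosis at 0.010 without Cirrhosis replicate 4 (from −0.10), and Igfbp1 in Cirrhosis-PTH against Control at −0.016 without Cirrhosis-PTH replicate 3 (to 0.53). Leaving out 1 library gave 6 to 7 called genes in Cirrhosis against Control, 7 to 7 in Cirrhosis-PTH against Cirrhosis and 0 to 3 in Cirrhosis-PTH against Control. In the last comparison, 3 genes were called in the main analysis and 3 by DESeq2, which was fitted to all genes with a count. With edgeR, 1 was called with a replicate block, 1 without Control replicates 7 and 8 and 1 with the 12 libraries of both groups. The edgeR fit without a filter called 0 (4 at an unadjusted p under 0.05). The cause was not tested.

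The sources used here do not say that replicate numbers pair the mice, and the libraries showed no sign of it. Correlations of same-numbered libraries ran from −0.06 to 0.05, and none of 14 correlated best with its own number. With the replicate block, 5 and 7 genes were called in the first 2 comparisons, and Angptl8 in Cirrhosis against Control stood at 0.60 (adjusted p = 0.14). Fgf21 had 0 counts in Control replicate 3, which held 41.2 M counts outside the ribosomal loci. Control replicates 7 and 8, with 31.0 and 24.5 M such counts, held 62 and 51 counts of Fgf21. The lowest count of Gdf15 was 30, in Cirrhosis-PTH replicate 4. The effect of depth on these genes was not tested.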

Other observations

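Within each group of 6 mice, the 36 pairs of hepatokine genes were correlated, 108 relations in all, with an exact permutation test over 720 arrangements. None passed after adjustment. With 720 arrangements, the smallest possible p is too large for any 1 pair alone to pass after adjustment over 108. The test therefore cannot decide whether a single pair was related. In Control, Angptl8 and Igfbp1 had r = −0.98 (exact permutation p = 0.0042, adjusted p = 0.225) and Spearman's rho −0.94 (exact permutation p = 0.0167, adjusted p = 0.6), and r was −0.93 without the 2 livers farthest from the median of Angptl8. In Cirrhosis, Lect2 and Inhbe had r = 0.95 and rho 0.94, with the same p-values, and r was 0.98 without 2 livers.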
